A study of Mus musculus with 6 samples.

Results

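Ion channel genes were examined in microglia, the resident immune cells of the brain, taken from mice after acute ischemic stroke (AIS). The genes were those whose RefSeq symbol starts with Kcn, Cacna, Cacnb, Cacng or Hcn, or is Scn followed by a number and a or b, which covers potassium, calcium, hyperpolarization-activated and sodium channels. A total of 141 such genes, of 23462 genes named on the array, were represented by 237 probes. Of these, 109 genes with 171 probes passed the filter on dim probes, of 18222 genes that passed in all. The other 32 were too dim.

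Control mice (PGC-1α f/f) had a floxed PGC-1α allele together with eGFP. Their mPGC-1α littermates had that allele plus Cx3cr1-CreERT2, a targeted allele of the Cx3cr1 gene itself. Its Cre acts after tamoxifen in cells that use Cx3cr1. The mPGC-1α mice were meant to overexpress the transcriptional coactivator PGC-1α in microglia. Other macrophages use Cx3cr1 too, and the study left an interval after tamoxifen meant to spare them. Mice of both genotypes were given tamoxifen and were male, 10 weeks old and of a C57BL/6 background per the labels and methods. Stroke was induced by transient occlusion of the middle cerebral artery, and microglia were pulled down by magnetic selection for the surface receptor P2RY12. There were 3 control and 3 mPGC-1α samples, with 1 single-colour array each. How many animals a sample held, and how long after stroke it was taken, is not given in the sources used here, so the p-values measure the spread between these samples. A level is the log2 intensity of a probe minus the 75th percentile of its array, so that a level of 0 is that percentile, and a difference is mPGC-1α minus control.

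Some arrays stood apart or went against their labels. Ppargc1a, the gene of PGC-1α, was not higher in the group labelled mPGC-1α: its brighter probe read -1.02, -0.48 and -0.29 in the controls and -1.05, -0.81 and -0.62 in the other group, a difference of -0.23 (SE 0.30, limma adjusted p = 0.871). Whether the probe reads the transgene is not given in the sources used here, and mPGC-1α below means the arrays labelled so. Xist, which females make from their inactive X chromosome, read -4.75 on control array 2 and -0.52 to 0.02 on the other 5 arrays. Of the Y-linked genes, Ddx3y (-2.61) and Uty (-2.42) were well above background there but on no other array. An Eif2s3y probe read 0.11 there and -8.61 to -6.59 on the others. Another read -0.73 there, -5.98 and -5.83 on the other controls, and -8.67 to -6.72 on the mPGC-1α arrays. A Kdm5d probe read -1.47 there and -9.02 to -6.79 on the others, but another was well above background on all 6 arrays (-4.98 to -3.02). All 6 samples were labelled as male. For Xist, Ddx3y and Uty the 5 other arrays went against that label, but not for each probe of Eif2s3y and Kdm5d. The third array of both groups came from another slide (slide 2), where 73.5% and 71.0% of spots were well above background against 83.5% to 86.5% on the other 4, and 0 spots were saturated. The lowest level well above background was -4.99 on control array 3 and -4.46 on mPGC-1α array 3, against -6.71 to -6.28 on the other arrays. Results are therefore also given without control array 2 and within each slide where that changes them. Of the defining microglial markers, P2ry12 and Tmem119 were bright (levels from 4.19 to 5.57 where measured) but were marked as outliers on 3 of the 6 arrays each and were not tested.

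Voltage-gated channels open when the membrane potential changes, and in neurons sodium channels drive the upstroke of the action potential, potassium channels end it and calcium channels couple it to transmitter release. Microglia do not fire action potentials. They are known for a small set of potassium channels, among them inward rectifiers, the voltage-gated channel Kv1.3, calcium-activated channels and two-pore-domain channels, which set the membrane potential, calcium entry and the potassium efflux that precedes activation of the NLRP3 inflammasome. Channel genes of neurons, astrocytes and oligodendrocytes can enter the RNA of selected microglia through other cells, debris or engulfed material.

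Across the channel genes, levels were higher on the mPGC-1α arrays for 91 of 109 tested genes and lower for 18. The median log2 difference was 0.24, beside 0.17 over all 18222 genes tested, of which 70.8% were higher against 83.5% of the channel genes. With limma and Benjamini-Hochberg adjustment over all tested probes, 0 channel genes had an adjusted p below 0.05, and of all genes 0% did. At an unadjusted p below 0.05, 13 channel genes were higher, against 3.58% of all genes, and 1 was lower, against 1.83% of all genes. No overlap between groups was found for 14 of 106 channel genes measured on all 6 arrays with the mPGC-1α arrays higher, where the share was 9.48% of all genes, and for 2 with the mPGC-1α arrays lower, where it was 1.55%. A gene that passed the filter through a single group was dim on an array of the other, which favours a difference without fixing it. Of such genes, 5 passed through the control arrays alone (Kcna3, Kcnf1, Kcnh7, Kcnk2 and Kcnq1) and 4 through the mPGC-1α arrays alone (Kcna1, Kcne1l, Kcnj15 and Scn3b). Among the former, Kcnk2 differed by -0.05, Kcnq1 by 0.04 and Kcnf1 by 0.54. Of the 100 genes that passed in both groups, 85 were higher, with a median of 0.24. At an unadjusted p below 0.05, 10 of them were higher and 0 lower, against 3.58% and 1.83% of all genes. Of the 97 of them measured on all 6 arrays, 11 did not overlap on the higher side and 1 on the lower side. The shares of all genes were 9.48% and 1.55%.

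These counts moved with single arrays. Of the channel genes, 14 had an unadjusted p below 0.05 with all 6 arrays, where 5.41% of all genes did. The count was 7 without control array 1 (3.39% of all genes), 29 without control array 2 (14.9%), and 7 with mPGC-1α array 2 left out (4.88%). Without control array 1 the median difference was 0.11, with 67 of 108 genes higher, and that of all genes was 0.05. Without control array 2 the median was 0.39, that of all genes was 0.26, and Kcna1 and Kcng1 passed the limma adjustment as higher, as 0.466% of all genes did. Kcna1 and Kcne1l passed when mPGC-1α array 1 was left out, as did 0.438% of all genes. Within slide 1, which held 2 arrays of each group, 84 of 109 channel genes were higher, with a median of 0.23 beside 0.08 for all genes. Between the 2 arrays of slide 2, 84 of 106 were higher, and the median was 0.34 beside 0.37 for all genes.

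By family, the pore-forming sodium channel subunits (6 of 6 tested genes higher, median 0.40), their beta subunits (4 of 4, median 0.52) and the inward rectifiers (11 of 11, median 0.42) lay to the higher side. The voltage-gated potassium channels, the most numerous family, had 25 of 31 genes higher and a median of 0.20, close to that of all genes. Two-pore-domain channels, which carry background potassium currents, had 8 of 11 genes higher and a median of 0.12. The calcium channel alpha1 subunits, which form the pore, had 6 of 8 genes higher and a median of 0.11, and their alpha2delta subunits, which traffic the channel to the membrane, 3 of 4 and 0.10. The beta subunits of calcium channels had 4 of 4 genes higher (median 0.30) and the gamma subunits, which include regulators of AMPA-type glutamate receptors, 5 of 6 (median 0.45). The remaining families were the calcium- and sodium-activated potassium channels (5 of 6, median 0.35), the auxiliary subunits of potassium channels (10 of 13, median 0.34), the hyperpolarization-activated channels (2 of 3, median 0.26) and long noncoding RNAs named after a channel (2 of 2, median 0.19). None was tested as a group, and most families hold few genes. No family median changed sign with another scaling of the arrays, but without control array 1 those of the alpha1 subunits (-0.04), the alpha2delta subunits (-0.15) and the two-pore-domain channels (-0.09) did, and so did that of the noncoding RNAs without mPGC-1α array 1 (-0.03) or with the mean of all probes (-0.03). Without control array 1, 9 of 11 inward rectifiers and 4 of 6 sodium channel alpha subunits were higher. With normexp and quantile normalization the median of the inward rectifiers was 0.19 and that of the sodium channel alpha subunits also 0.19, beside 0.09 for all genes.

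**Figure D1:**
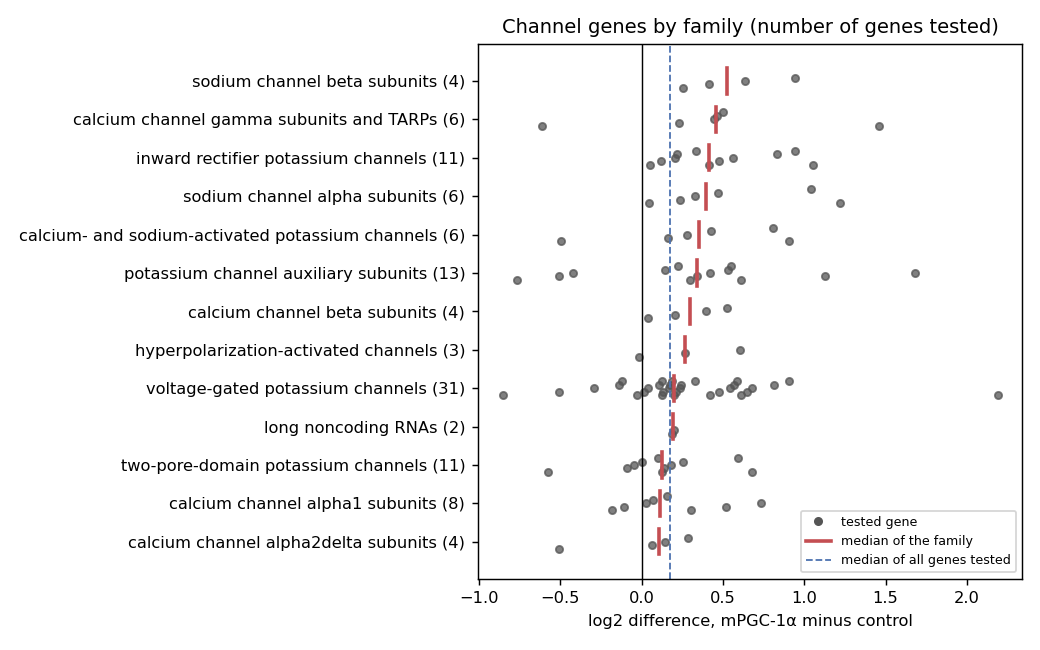
Log2 difference (mPGC-1α minus control, x axis) of each of the 109 tested channel genes, by family (y axis, with the number of genes tested), where a point is a gene, a red bar the family median, the dashed line the median of all genes tested (0.17) and the solid line 0. The points of the inward rectifiers and of both sodium channel families lie to the right of 0, Kcna1 at 2.19 is the farthest right and Kcna3 at -0.86 the farthest left, each of which passed the filter through a single group.

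Kcna1, which encodes the voltage-gated potassium channel Kv1.1 of axons, had the highest fitted difference. It was well above background on 2 of 3 control arrays and passed the filter through the mPGC-1α arrays alone, which favours a higher level there. In the order of the array numbers, which is kept below, it read -4.41, -3.31 and -5.41 in the controls and -1.76, -2.37 and -2.43 in mPGC-1α microglia. The groups did not overlap, and control array 3, below the lowest level well above background there, was the dimmest. The means were -4.38 ± 1.05 (SD, n = 3) and -2.19 ± 0.37 (SD, n = 3), a difference of 2.19 (SE 0.47). Limma gave an unadjusted p = 0.000516 and an adjusted p = 0.554, and the exact permutation test over the 20 assignments a two-sided p = 0.1, the smallest that 3 against 3 arrays allow. The difference was 1.80 within slide 1, where both controls were above background, and 1.14 over all arrays with normexp and quantile normalization.

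Scn2a, which encodes the neuronal sodium channel Nav1.2, read -2.82, -2.33 and -2.92 in the controls and -1.42, -0.95 and -2.03 in mPGC-1α microglia. Each mPGC-1α array lay above each control array, and the difference was 1.22 (SE 0.35, limma adjusted p = 0.573). A second Scn2a probe differed by 0.15, with overlapping groups, and the mean of both by 0.68. Kcnip4, a calcium-binding partner of the Kv4 channels, read -4.78, -4.79 and -4.55 in the controls and -3.50, -3.27 and -3.98 in mPGC-1α microglia. Its difference was 1.13 (SE 0.34, limma adjusted p = 0.573), again without overlap, and 0.48 with normexp and quantile normalization.

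Kcnj10 encodes Kir4.1, the inward rectifier through which astrocytes and oligodendrocytes take up potassium. It read 0.15, 0.40 and 1.20 in the controls and 1.34, 2.08 and 1.49 in mPGC-1α microglia. The groups were separated by a narrow gap between control array 3 and mPGC-1α array 1, and the difference was 1.05 (SE 0.34, limma adjusted p = 0.573), with 1.44 within slide 1 and 0.28 on slide 2. Kcne1l, an X-linked accessory subunit of voltage-gated potassium channels, read -5.96, -5.23 and -5.00 in the controls and -4.69, -2.12 and -4.34 in mPGC-1α microglia. The groups did not overlap and the difference was 1.68 (SE 0.59, limma adjusted p = 0.594), but mPGC-1α array 2 stood far above the other two, and control array 3 lay below the lowest level well above background there. It too passed the filter through the mPGC-1α arrays alone, and its difference was 0.88 without mPGC-1α array 2 and 0.67 with normexp and quantile normalization. Cacng2 encodes stargazin, which carries AMPA-type receptors to the synapse. It was added after its values were seen, because it passed the fit described next. It read -1.52, -1.17 and -2.13 in the controls and 0.50, 0.53 and -1.48 in mPGC-1α microglia, so mPGC-1α array 3 lay among the controls and the difference was 1.46 (SE 0.49, limma adjusted p = 0.577).

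**Figure D2:**
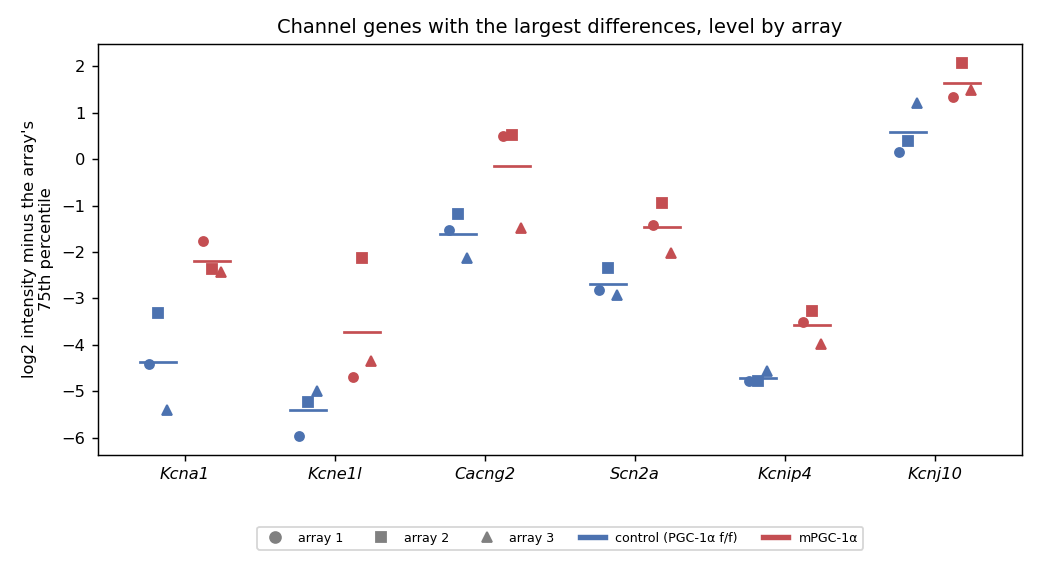
Level (log2 intensity minus the 75th percentile of the array, y axis) of 6 channel genes on the 3 control arrays (blue) and the 3 mPGC-1α arrays (red), where symbols mark the array number and bars the group means. The red points lie above the blue points for each gene except Cacng2, where mPGC-1α array 3 (-1.48) lies among the control arrays.

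The labels do not say that the replicate numbers pair the arrays. A fit with the number as a block is given because arrays with the same number deviated together in these same data. Number 3 is also slide 2, and the p-values of this fit hold only if the numbers are pairs. Limma draws a gene's error largely from probes of similar level, so they measure the spread of a gene's own pairs only in part. The fit also called Xist (limma adjusted p = 0.0032 with the block), whose groups overlapped and which stood apart on control array 2. With the replicate number as a block, 5 channel genes rose, where limma called 1.39% of all genes as higher, and 0 fell, where it called 1.53% of all genes as lower. The 5 were Kcna1 (adjusted p = 2.9e-05 by limma with the block), Cacng2 (0.000864), Kcne1l (0.0076), Kcnj10 (0.0096) and Scn2a (0.014), with the same differences as above. Of them Kcna1 and Kcne1l had passed the filter through the mPGC-1α arrays alone, and the other 3 were among the 100 genes that passed in both groups. At an unadjusted p below 0.05 the block gave 21 channel genes higher and 3 lower, against 7.50% and 4.34% of all genes. When the block was fitted to quantile-normalized values, an alternative chosen after seeing the data, 0 of the 5 passed, and 19 channel genes were higher and 2 lower at an unadjusted p below 0.05, where 5.17% of all genes were higher.

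The 250 bases before the annotated start of the genes that passed with the block, and of Kcna3, are shown to set the start regions of genes that rose beside that of a microglial channel. The table holds no start of Kcna1. A start was matched in the RefSeq table for 103 of the 141 genes, with 139 starts. For these genes it gave 6 starts of 5 genes, of which Scn2a had 2, on assembly GRCm38.p6. Sequences run 5′ to 3′ on the strand of the gene, and capitals mark matches, on either strand, of 4 motifs. These were the core GAGGAA of the myeloid factor PU.1, the TATA box TATAAA, the site TCAAGGTCA of estrogen-related receptors, which are partners of PGC-1α, and a part, TTCAGCACC, of the site of the neuronal gene repressor REST.
Cacng2, chr15:78119281-78119530, strand minus: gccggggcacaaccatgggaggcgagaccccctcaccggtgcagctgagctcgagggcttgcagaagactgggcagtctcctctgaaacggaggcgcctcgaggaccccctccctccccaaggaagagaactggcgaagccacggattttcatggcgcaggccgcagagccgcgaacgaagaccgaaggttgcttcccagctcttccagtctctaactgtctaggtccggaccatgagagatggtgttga
Kcna3, chr3:107035912-107036161, strand plus: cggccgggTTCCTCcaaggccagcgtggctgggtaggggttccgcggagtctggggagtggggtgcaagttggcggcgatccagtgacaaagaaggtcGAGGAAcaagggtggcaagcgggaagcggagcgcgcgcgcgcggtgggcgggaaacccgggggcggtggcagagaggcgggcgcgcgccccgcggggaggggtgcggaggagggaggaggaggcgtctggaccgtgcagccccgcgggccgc
Kcne1l, chrX:142306199-142306448, strand minus: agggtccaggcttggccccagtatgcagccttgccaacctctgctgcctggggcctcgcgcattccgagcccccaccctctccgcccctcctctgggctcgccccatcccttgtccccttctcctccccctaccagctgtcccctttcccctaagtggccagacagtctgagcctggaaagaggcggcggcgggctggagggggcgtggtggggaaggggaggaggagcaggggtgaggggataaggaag
Kcnj10, chr1:172340960-172341209, strand plus: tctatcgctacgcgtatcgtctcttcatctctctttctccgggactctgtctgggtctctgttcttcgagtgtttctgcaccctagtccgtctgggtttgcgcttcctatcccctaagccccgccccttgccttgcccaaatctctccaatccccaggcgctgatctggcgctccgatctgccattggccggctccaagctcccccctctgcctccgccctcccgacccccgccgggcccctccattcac
Scn2a, chr2:65620519-65620768, strand plus: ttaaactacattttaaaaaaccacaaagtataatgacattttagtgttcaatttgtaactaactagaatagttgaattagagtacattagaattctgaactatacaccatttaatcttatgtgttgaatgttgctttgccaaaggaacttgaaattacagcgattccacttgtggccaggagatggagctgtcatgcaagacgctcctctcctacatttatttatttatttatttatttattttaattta
Scn2a, chr2:65668436-65668685, strand plus: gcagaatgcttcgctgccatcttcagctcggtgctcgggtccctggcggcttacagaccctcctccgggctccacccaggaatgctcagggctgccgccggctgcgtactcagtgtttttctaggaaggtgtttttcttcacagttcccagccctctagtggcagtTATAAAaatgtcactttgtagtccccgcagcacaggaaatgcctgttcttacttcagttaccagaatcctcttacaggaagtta

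Kcna3 held 2 matches of the PU.1 core, a motif found in 23.3% of all 32851 starts and in 20.9% of the starts of channel genes. The downstream start of Scn2a held a TATA box, found in 12.4% of all starts and in 2.88% of those of channel genes. The estrogen-related receptor motif was found in 0.387% of all starts and, among the channel genes, at a start of Hcn2. The REST motif was found in 0.301% of all starts and, among the channel genes, at a start of Kcnh6. The share of G and C was 74.4% for Kcna3, 68.0% for Kcne1l, 62.0% for Kcnj10 and Cacng2, and 29.6% and 53.2% for the upstream and downstream starts of Scn2a, beside a median of 58.4% for channel genes and 52.4% for all starts.

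The channels known in microglia were read gene by gene. Of 9 genes on this list 8 were tested, 5 were higher and 3 lower, the median difference was 0.20, and limma called 0 of them with or without the replicate block. Without control array 2, 3 of 7 were higher and the median was -0.09. Kcna5, which encodes Kv1.5, was not well above background on any of the 6 arrays.

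Kcna3 encodes Kv1.3, a potassium channel that is induced in activated microglia and T cells. It read -3.43, -4.34 and -3.41 in the controls and -4.59, -4.57 and -4.59 in mPGC-1α microglia. The groups did not overlap, with control array 2 nearest to the mPGC-1α arrays, and mPGC-1α array 3 lay below the lowest level well above background there. The difference was -0.86 (SE 0.36), with an unadjusted p = 0.036 and an adjusted p = 0.711 by limma, and an adjusted p = 0.309 with the block. It had passed the filter through the control arrays alone, which favours a higher level in the controls. The difference was -0.69 within slide 1, where the 4 arrays were above background, and -0.36 over all arrays with normexp and quantile normalization.

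Kcnn4 encodes KCa3.1, a calcium-activated potassium channel that sustains calcium entry in microglia. It read 0.36, 1.46 and 0.59 in the controls and -0.36, 0.69 and 0.59 in mPGC-1α microglia, with overlapping groups. The difference was -0.50 (SE 0.38, limma adjusted p = 0.828), and 2 dimmer probes of the gene differed by -0.46 and -0.06. It was -0.16 without control array 2, and -0.16 as well when mPGC-1α array 1 was left out. Kcnab2, a cytoplasmic beta subunit of Kv1 channels, had levels of -3.11, -4.44 and -3.94 against -4.51, -4.27 and -3.97, and a difference of -0.42 (SE 0.40), which became -0.061 without control array 1 and -0.72 when control array 2 was left out instead.

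Kcnj2 encodes Kir2.1, the inward rectifier of resting microglia. It read 1.09, 1.38 and 0.50 in the controls and 1.53, 1.28 and 1.85 in mPGC-1α microglia. The groups overlapped, and the difference of 0.56 (SE 0.31, limma adjusted p = 0.794) was 0.17 within slide 1 and 1.34 on slide 2, and 0.32 without control array 3. Kcnma1, the large-conductance calcium-activated channel, read -0.68, -0.19 and -0.38 in the controls and -0.04, 0.05 and 0.02 in mPGC-1α microglia. The groups did not overlap, the difference was 0.43 (SE 0.28, limma adjusted p = 0.818), of its 4 other tested probes 3 were higher and 1 was lower, and the mean of all probes differed by 0.23.

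The two-pore-domain channels THIK-1 (Kcnk13), which carries the background potassium current of ramified microglia, and TWIK-2 (Kcnk6), known as a route of potassium efflux in macrophages, gave small differences. Kcnk13 had levels of 0.21 and 0.12 on control arrays 1 and 2, was marked as an outlier on control array 3, and read 0.64, -0.05 and 0.67 in mPGC-1α microglia, which differed by 0.26 (SE 0.34) over 5 arrays. Kcnk6 had levels of -0.64, -0.99 and 0.04 against -0.26, -0.51 and -0.41, and its difference of 0.14 (SE 0.32) was 0.43 within slide 1 and -0.45 on slide 2. The small-conductance channel gene Kcnn3 had levels of -1.36, -0.60 and -1.05 against -0.59, -0.77 and -0.81, and a difference of 0.28 (SE 0.30). Over the alternatives the difference of Kcnk13 ranged from 0.092 to 0.49 and that of Kcnn3 from 0.10 to 0.48. For these 3 genes the groups overlapped or could not be compared on all arrays, and the limma adjusted p lay between 0.848 and 0.921.

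**Figure D3:**
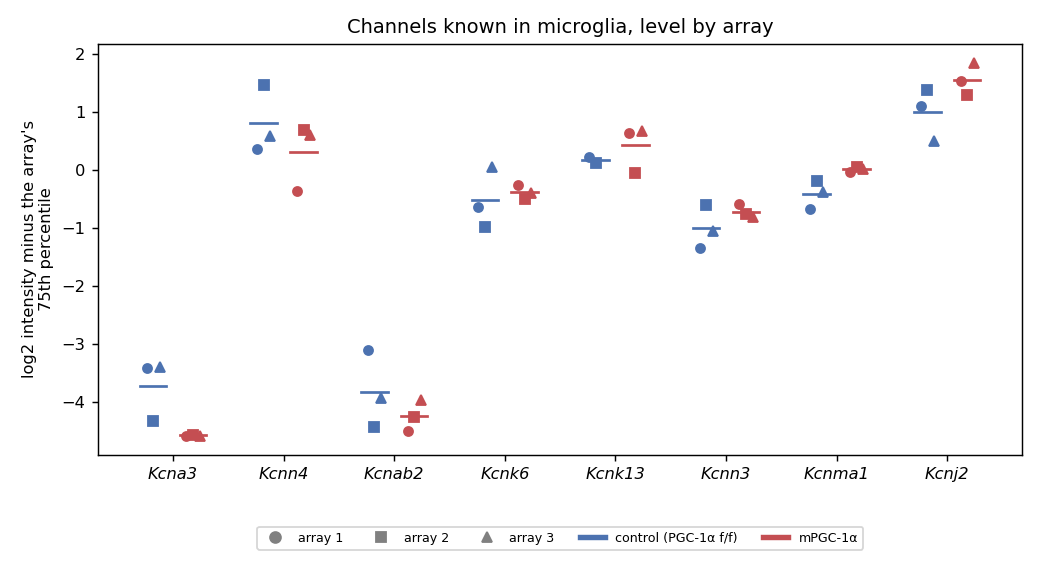
Level (log2 intensity minus the 75th percentile of the array, y axis) of the 8 tested channels known in microglia on the 3 control arrays (blue) and the 3 mPGC-1α arrays (red), where symbols mark the array number and bars the group means, and Kcnk13 has no value on control array 3. The 3 red points of Kcna3 lie at about the same level, from -4.59 to -4.57, under the control points, and those of Kcnma1 lie above theirs.

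Other ion channel and calcium-entry genes known in microglia, which are not members of these families, were read beside them. Of 15 such genes 14 were higher, against 70.8% of all genes, and 0 passed the limma adjustment. Their median difference was 0.28, beside 0.17 for all genes. In the authors' matrix 11 of 15 were higher, with a median of 0.14 beside 0.08 for all genes. The median was 0.17 within slide 1 and 0.71 on slide 2, beside 0.08 and 0.37 for all genes. Lrrc8a, a subunit of volume-regulated anion channels, differed by 0.60, Hvcn1, the voltage-gated proton channel, by 0.47 and P2rx7, the ATP-gated channel upstream of NLRP3, by 0.38.

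Channel genes known in neurons formed the largest list. Of 52 genes, 42 were tested, 38 were higher and 4 lower, the median difference was 0.40, and 9 had an unadjusted p below 0.05, each of them higher on the mPGC-1α arrays, where 3.58% of all genes were. The groups did not overlap for 9 genes with the mPGC-1α arrays higher, against 9.48% of all genes, and for 1, Cacna2d1, with them lower. Kcna1, Scn2a and Cacng2 of this list passed with the replicate block. The median over the 54 tested channel genes on no list was 0.20. With quantile normalization the median of the neuronal list was 0.29, in the authors' matrix 0.27 and with normexp and quantile normalization 0.21, beside 0.12, 0.08 and 0.09 for all genes. The median of the neuronal list was 0.26 without control array 1, with 31 of 42 genes higher, and 0.52 without control array 2. Within slide 1 it was 0.34, with 37 of 42 genes higher, and on slide 2 it was 0.39, with 35 of 42 higher, beside 0.37 for all genes.

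Several of these genes did not overlap between the groups without passing any adjusted threshold. Kcnt1, a sodium-activated potassium channel, read -0.44 to -0.19 in the controls and 0.14 to 1.05 in mPGC-1α microglia and differed by 0.91 (SE 0.31, limma adjusted p = 0.577, and 0.053 with the block), but its other 2 tested probes differed by 0.30 and 0.11. Kcnd2, the A-type channel of dendrites, had levels from -2.27 to -1.67 against -1.37 to -0.86, a difference of 0.82 (SE 0.31). Cacna1a, the pore of the P/Q-type calcium channel of nerve terminals, had levels from 0.33 to 1.06 against 1.14 to 1.60, a difference of 0.73 (SE 0.30), and its other 2 tested probes differed by 0.83 and 0.19. Scn3b, a sodium channel beta subunit, had levels from -4.79 to -3.87 against -3.68 to -2.84, a difference of 0.945 (SE 0.38), but was above background on 2 of 3 control arrays and passed through the mPGC-1α arrays alone. Scn1a, the pore of a sodium channel of inhibitory neurons, differed by 1.04 (SE 0.44), with -0.19 on mPGC-1α array 1 and -2.13 on mPGC-1α array 2, so the groups overlapped.

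Among channels known in astrocytes, oligodendrocytes, mural cells or choroid plexus, 5 of 7 genes were tested. Beside Kcnj10, Kcnj16, its partner in astrocytes, was higher (levels from -3.00 to -2.33 against -2.49 to -1.03, a difference of 0.94, SE 0.39), with overlapping groups. Kcne2, an accessory subunit abundant in choroid plexus, read 1.35, 1.93 and 2.54 in the controls and 0.17, 1.45 and 1.90 in mPGC-1α microglia. Its groups overlapped, and the difference was -0.77 (SE 0.43, limma adjusted p = 0.799, and 0.076 with the block), -0.47 without control array 3 and -0.27 when mPGC-1α array 1 was left out. Kcnk1, a two-pore-domain channel, differed by -0.57 (SE 0.39) and Kcnj8, a subunit of ATP-sensitive channels in pericytes, by 0.33 (SE 0.33). Kcnj12, an inward rectifier on no list, had levels from -2.04 to -1.85 against -1.43 to -0.82, a difference of 0.83 (SE 0.29) without overlap.

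The probes named for their brightness gave smaller differences, and the levels of different probes are not compared, since a probe's brightness depends on its sequence. Scn8a, the sodium channel Nav1.6, read 5.33, 5.90 and 6.03 in the controls and 6.05, 6.01 and 6.61 in mPGC-1α microglia, a difference of 0.47 (SE 0.26), and its 3 other tested probes differed by 0.00 to 0.56. Cacnb4, a calcium channel beta subunit, had levels of 3.30, 3.53 and 3.41 against 3.92, 3.61 and 3.88 without overlap, a difference of 0.39 (SE 0.24). Hcn2, a hyperpolarization-activated channel, differed by 0.26 (SE 0.24), Cacna2d2 by 0.29 (SE 0.28), Cacng6 by 0.50 (SE 0.31) and Kcnk15 by 0.12 (SE 0.29). Cacna1i, a low-voltage-activated calcium channel, differed by -0.11 (SE 0.33). Kcnh6 (0.12, SE 0.32) was measured on 4 arrays and Kcnq1ot1 (0.20, SE 0.31), a noncoding RNA antisense to Kcnq1, on 5. The limma adjusted p of these 9 genes lay between 0.794 and 0.940. Under at least one alternative, Kcnh6, Kcnq1ot1, Kcnk15, Cacna1i and Cacna2d2, and Kcnk6 of the microglial channels, changed direction. In the authors' matrix the differences of Scn8a (0.13), Cacnb4 (0.19), Hcn2 (0.03) and Cacna2d2 (0.13) were smaller, and that of Cacng6 was 0.25 without mPGC-1α array 3.

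Several probes were tested for 42 of the 109 genes, and they had one direction for 29 genes and differed in direction for 13. Cacna2d1, a neuronal alpha2delta subunit, was the clearest case. Its brightest probe was lower without overlap (-0.51, SE 0.31), another was also lower without overlap (-0.67) and the dimmest was higher without overlap (1.28, limma adjusted p = 0.038 with the block). Kcnmb4, a neuronal subunit of the large-conductance channel, had 2 probes that were both higher without overlap, by 0.61 and 1.28, and the dimmer of them passed with the block (limma adjusted p = 0.032). Probes of one gene that carry accessions of different transcripts may read different isoforms.

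Genes whose products bind or anchor neuronal channels were read as a further list. Of 14 genes 11 were higher, with a median difference of 0.29, and with the block 2 passed, Nrcam, a cell adhesion molecule of the node of Ranvier (1.06, limma adjusted p = 0.030), and Unc80, a subunit of the sodium leak channel complex (1.29, limma adjusted p = 0.039). Dpp6, a subunit of Kv4 channels, differed by 0.79 and Ank2 by 0.68, both without overlap. Cntnap2, which clusters Kv1 channels on axons, and Lgi1, a secreted modulator of Kv1 channels, differed by -0.96 and -0.98, with overlapping groups. Rest, the repressor of neuronal genes, differed by 0.03.

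Markers of neurons, astrocytes and oligodendrocytes were mostly higher, as the neuronal channels were, and those of choroid plexus and of monocytes, border macrophages and neutrophils mostly lower. Of 20 neuron markers that are not channels 19 were higher on the mPGC-1α arrays, with a median difference of 0.88, the groups did not overlap for 14 (9.48% of all genes), and 8 passed with the block (1.39% of all genes), among them Tubb3 (1.25), Map2 (1.08) and Stmn2 (1.06). The summed log2 level of this list was 5.75, 6.47 and 6.42 on the control arrays and 6.65, 6.58 and 6.85 on the mPGC-1α arrays. The summed log2 level of the 42 neuronal channel genes was 6.55, 7.08 and 7.01 on the control arrays and 7.15, 7.16 and 7.49 on the mPGC-1α arrays. Neither sum overlapped between the groups on this scale, and control array 1 was the lowest in both. Both separations rest on the scaling. The 75th percentile was 632 over probes and 1189 over spots on mPGC-1α array 3, and 673 and 927 on control array 2. Scaled over spots, mPGC-1α array 3 lay below control array 2 in both sums. Such sums weigh bright probes most, among them those of Scn8a, Hcn2 and Snap25. In the authors' matrix the differences of Scn8a and Hcn2 were 0.13 and 0.03. In RNA of a cell suspension, more cells of a type and more RNA per cell cannot be told apart, and the part of neuronal RNA in the channel differences was not tested.

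Astrocyte markers were higher for 9 of 9 tested genes (median 1.05, 5 with the block, Gfap by 1.05), and their summed log2 level ranged from 3.34 to 4.25 on the control arrays and from 4.16 to 5.86 on the mPGC-1α arrays. Oligodendrocyte markers were higher for 11 of 12 (median 0.81, 3 with the block, Cldn11 by 1.73), with summed log2 levels from 2.60 to 3.88 and from 3.98 to 4.73. Microglia markers were higher for 4 of 10 (median -0.09), with summed log2 levels from 6.84 to 7.29 and from 6.82 to 7.40. The median was 0.11 within slide 1 (5 of 9) and 0.08 on slide 2 (3 of 6), beside 0.08 and 0.37 for all genes. With the block 5 of 10 were higher (median 0.02), and 2 markers fell. These were Cx3cr1, which drives Cre in the mPGC-1α mice (-1.15, without overlap), and Olfml3 (-1.29, with overlapping groups). The Cre allele is a targeted allele of Cx3cr1 that the controls lacked, and its part in the Cx3cr1 difference was not tested. Endothelial and mural markers were higher for 8 of 9 (median 0.14), choroid plexus and ependymal markers for 1 of 5 (median -0.21), and monocyte, border macrophage and neutrophil markers for 2 of 10 (median -0.14). The endothelial count was 4 of 9 with normexp and quantile normalization (median -0.01) and 3 of 9 without control array 1 (median -0.02). On slide 2, 2 of 4 choroid plexus markers (median 0.02) and 6 of 8 monocyte markers (median 0.42) were higher, beside a median of 0.37 for all genes. Without mPGC-1α array 1 these were 3 of 4 (median 0.16) and 5 of 8 (median 0.29), beside 0.25. The summed log2 levels of these lists overlapped between the groups, and with the block the endothelial marker Pecam1 (-1.14) and the ependymal marker Foxj1 (-0.91) fell. Of the 20 neuron markers, 19 were well above background on all 6 arrays and Gad1 was so on 2 of 3 control arrays, with Snap25 at 5.79 on the control arrays and 6.17 on the mPGC-1α arrays.

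**Figure D4:**
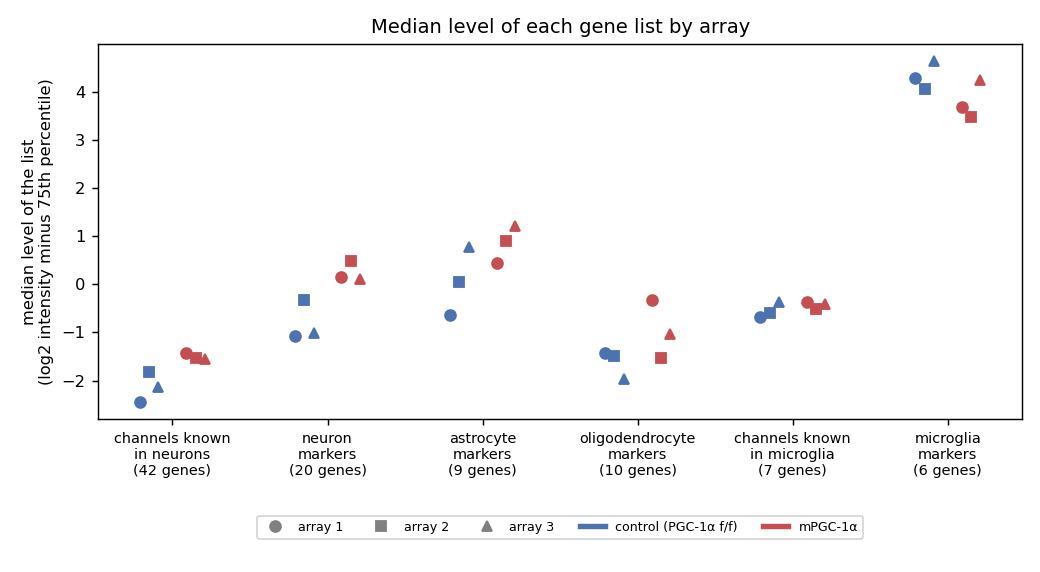
Median level of each gene list (log2 intensity minus the 75th percentile of the array, y axis) on the 3 control arrays (blue) and the 3 mPGC-1α arrays (red), over the genes with a value on all 6 arrays, whose number stands under each name; symbols mark the array number. The neuronal channels (-2.45 to -1.81 against -1.55 to -1.44) and the neuron markers (-1.08 to -0.33 against 0.11 to 0.48) do not overlap between the groups, while the channels known in microglia do. Scaled to the 75th percentile over spots, mPGC-1α array 3 lies below control array 2 for both neuronal lists, though narrowly for the markers.

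The 32 channel genes that did not pass the filter held 10 of the 52 neuronal channels, among them Kcna2, Scn3a and Cacna1e. A probe of a channel gene was well above background for 124, 126 and 105 of the 141 genes on control arrays 1 to 3 and for 125, 126 and 105 on mPGC-1α arrays 1 to 3, so the number detected was lower on slide 2 in both groups. With the filter removed, 115 of 141 genes were higher, with a median of 0.26.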

How the data were processed

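RNA of P2RY12-selected microglia from 3 PGC-1α f/f (control) and 3 mPGC-1α samples had been hybridised to Agilent mouse arrays, 1 per sample. The labels name Cy3 in one field and Cy5 in another, and the files hold 1 green channel. The authors deposited scanner files of linear intensity, background-subtracted and detrended in Agilent Feature Extraction 11.5.1.1 and not normalized between arrays. The log2 values of the authors' series matrix, normalized between arrays in GeneSpring, served as an alternative.

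Outlier-marked spots were left out, spots of a probe averaged, and log2 of the processed signal taken minus each array's 75th percentile over probes that are not controls. Tested probes (40745, of which 3750 lacked a value) were those for which each unmarked array of a group, of which there had to be 2 or more, was well above background in the controls, in mPGC-1α microglia or in both, and for which each group held 2 or more values. RefSeq (GRCm38.p6) named 33767 of 56605 probes (59.7%) by accession, and no array coordinates are given, since the array grid was made for another build. Each gene is given by its brightest tested probe. Groups were compared with limma 3.58.1 in R 4.3.3 (lmFit and eBayes with trend, two-sided, Benjamini-Hochberg over all tested probes, threshold 0.05), which was tested on simulated data, and single genes also with an exact permutation test. A test for array data is not given in the methods.

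The channel genes, the lists and the rule for named genes were chosen with earlier results of these data known. Named in full were the channels known in microglia, the members with the smallest unadjusted p among those at least 2-fold different without overlap (as 0 passed), the 5 brightest, and the brightest of each family, of which 1 is not reported here. Others that are named were chosen after their values were seen.

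Same-number arrays deviated together (correlations of 0.247, 0.224 and 0.171, against -0.337 to 0.035 for other pairs), so a fit with the number as a block stands beside results whose call it alters. The correlations are of deviations from the group mean, which cancel within each group, so they are tied to one another. What the numbers mean is not given in the sources used here. Alternatives were other normalizations, background corrections, filters, slide and replicate blocks, the mean of all probes, and leaving out each array. The number of arrays limits the precision.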

Additional observations from a re-analysis of the deposited data

How the results depend on the processing

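Counts of channel genes depended on the model and on single arrays, and directions of the named genes mostly did not. With the replicate block 5 channel genes had a limma adjusted p below 0.05 and 24 an unadjusted p below 0.05, against 0 and 14 without it. The block made the calls of Kcna1, Scn2a, Kcnj10, Kcne1l and Cacng2 and changed no other call of a named gene. With one array left out, from 0 to 2 channel genes passed the adjustment, from 7 to 29 had an unadjusted p below 0.05, and the median difference ranged from 0.11 to 0.39. Scaling to the 75th percentile over spots, chosen after seeing the data, gave 9 at an unadjusted p below 0.05 and a median of 0.15. Of the values of named genes under 16 planned and 2 added alternatives, 397 kept direction and side of the threshold, 8 passed in addition and 13 reversed. The reversals were Kcnh6 under quantile normalization (-0.084), with normexp (-0.15), with the mean of all its probes (-0.28) and with the block on quantile-normalized values (-0.084), and Kcnq1ot1 with the mean of its probes (-0.24) and under that same block (-0.068). Kcnk15 reversed in the authors' matrix (-0.038), Cacna2d2 (-0.16) and Cacna1i (0.021) with the mean of their probes. With one array left out, Kcnk15 ranged from -0.10 (without control array 1) to 0.35 and Kcnk6 from -0.093 (without control array 2) to 0.42. Cacna1i then ranged from -0.31 to 0.24 and was higher without control array 2 (0.045) or mPGC-1α array 1. The cause of these changes was not tested. Kcna1 stayed higher, between 1.14 and 2.72, and Kcna3 lower, between -1.16 and -0.36, under the alternatives that measured them. Probes near background, which include Kcna1, Kcne1l, Scn3b and Kcna3, have the least certain levels, above all on slide 2.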
